A study of Mus musculus with 9 samples.

Results

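The 33 genes described here encode acute phase proteins of mouse liver together with receptors, transcription factors and feedback inhibitors of the IL-6, STAT3 and IL-1 pathways. They were chosen by gene symbol, and all 33 were found among the 23420 genes of the count tables. Their levels were read in liver RNA of 9 wild-type C57BL/6 male mice on 3 soy-free AIN-93G diets. The low-iron diet held 2.5 mg of iron per kg of food, the sufficient-iron diet 37.5 mg and the high-iron diet 1000 mg. Mice entered the diets at 5 weeks of age, stayed on them for 50 days and were killed at 12 weeks, with 3 mice per diet and 1 library per mouse. The mice of all 3 groups shared strain, sex, base diet and age, and carried no transgene. Hemojuvelin knockout mice named in the protocol were not analysed here. Each library carries its diet and its title number as a name: replicates 1, 5 and 9 on low iron, 2, 6 and 10 on sufficient iron, and 4, 8 and 12 on high iron. Values per library are given in that order.

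The acute phase response is the shift in liver secretion that follows infection or injury. IL-6 binds its receptor and the shared chain gp130 on hepatocytes, JAK kinases phosphorylate STAT3, and STAT3 enters the nucleus and activates genes such as the fibrinogen chains and its own inhibitor Socs3. IL-1 acts through NF-kB and the C/EBP factors on a further group of genes that includes serum amyloid A and complement C3. In the same liver cells IL-6 and STAT3 induce hepcidin, the hormone that limits iron uptake, and several acute phase proteins bind iron, haemoglobin or siderophores.

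Libraries held 22 to 33.8 M reads assigned to genes. The ribosomal precursor Rn45s took 43.7% of these in low-iron replicate 1 and 40.5% in high-iron replicate 12. The remaining libraries spent 12.5% to 23.8% on it, sufficient-iron replicate 6 the least. Levels are given as CPM, the read count divided by the scaled library size in M reads. Hepatocyte markers summed to between 53444 and 79351 CPM in every library, and of the 10 markers 9 had enough reads to be tested. Ass1, a urea cycle enzyme gene of hepatocytes, had only 0.046 to 0.546 CPM. Non-unique alignments, 27.5 to 55 M in each library, were left out of the gene counts, which bears on genes with near-identical copies. The tissue was sequenced whole, so fewer cells of a type and less RNA per cell cannot be told apart.

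Both pentraxin Crp and inter-alpha-trypsin inhibitor heavy chain Itih4 fell in high-iron liver against low-iron liver, the 2 members that passed the adjusted threshold with edgeR in a pairwise comparison. Other secreted acute phase proteins lay lower in high-iron liver, and which of them passed depended on the tool. In high against low iron, 2 of 33 members passed an adjusted p of 0.05 (edgeR quasi-likelihood test, Benjamini-Hochberg over 13020 genes), against 0.507% of all tested genes. DESeq2 called 7 members (Saa4, Crp, Itih4, Hp, C3, Serpina3m and Lbp), limma-voom 2 (Crp and Itih4) and limma-voom with quality weights 8 (those of DESeq2 and Orm2), all lower in high iron. Over all genes these tools called 365, 64 and 366, in that order. At unadjusted p under 0.05, 11 members were lower in high iron, against 5.44% of all genes, and 0 were higher, against 4.22%. For 15 members all 3 high-iron libraries lay below all 3 low-iron libraries, against 8.15% of genes, and for 0 members they lay above, against 7.59%. The median log2 fold change over the 33 members was -0.38, against -0.01 over all genes. Without low-iron replicate 9 the median was -0.23.

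In high against sufficient iron, 0 of 33 members passed the adjusted threshold with edgeR, against 0.215% of all genes. DESeq2 called 6 members, limma-voom 0, and limma-voom with quality weights 2, against 215, 26 and 88 of all genes. At unadjusted p under 0.05, 13 members were lower in high iron (Saa1, Saa2, Saa3, Orm2, Crp, Itih3, Itih4, Hp, Lcn2, C3, Serpina3m, Lbp and Stat3), against 5.12% of genes, and 1 was higher (Orm3), against 4.16%. The libraries did not overlap for 11 members lower in high iron, against 8.85% of genes, and for 1 higher, against 8.99%. The median log2 fold change of the members was -0.34, and 26 of 33 were negative, against a median of -0.01 and 51.9% negative over all genes. Without sufficient-iron replicate 6, the library with the highest level of 12 members, the count at unadjusted p under 0.05 was 9 in place of 14 and the median was -0.21.

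Low against sufficient iron gave 0 of 33 members past the adjusted threshold with edgeR, against 0.0% of all genes. DESeq2 called 2 members, against 105 of all genes, but gave no adjusted p for 19 members. Limma-voom called 0 members and 0 of all genes, with or without quality weights. At unadjusted p under 0.05, 3 members were higher on low iron (Saa4, Orm1 and Crp), against 5.79% of genes, and 3 were lower (Lcn2, Cd14 and Steap4), against 5.41%. The count of 6 was 2 without low-iron replicate 1 and 3 without low-iron replicate 5. Libraries did not overlap for 4 members higher on low iron, against 8.81%, and for 1 lower, against 7.83%. These counts lie close to the background. The 2 comparisons with high iron share the high-iron libraries, and the 2 with sufficient iron share those of that diet, so their values stand side by side and are not independent of each other. Across the 3 diets together, 0 members passed the adjusted threshold, against 0.215% of genes. In that test 13 of 33 members had an unadjusted p under 0.05, against 10.7% of all genes. For the 3 diets DESeq2 called 6 members, limma-voom 0, and limma-voom with quality weights 4, against 413, 29 and 228 of all genes.

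**Figure D1:**
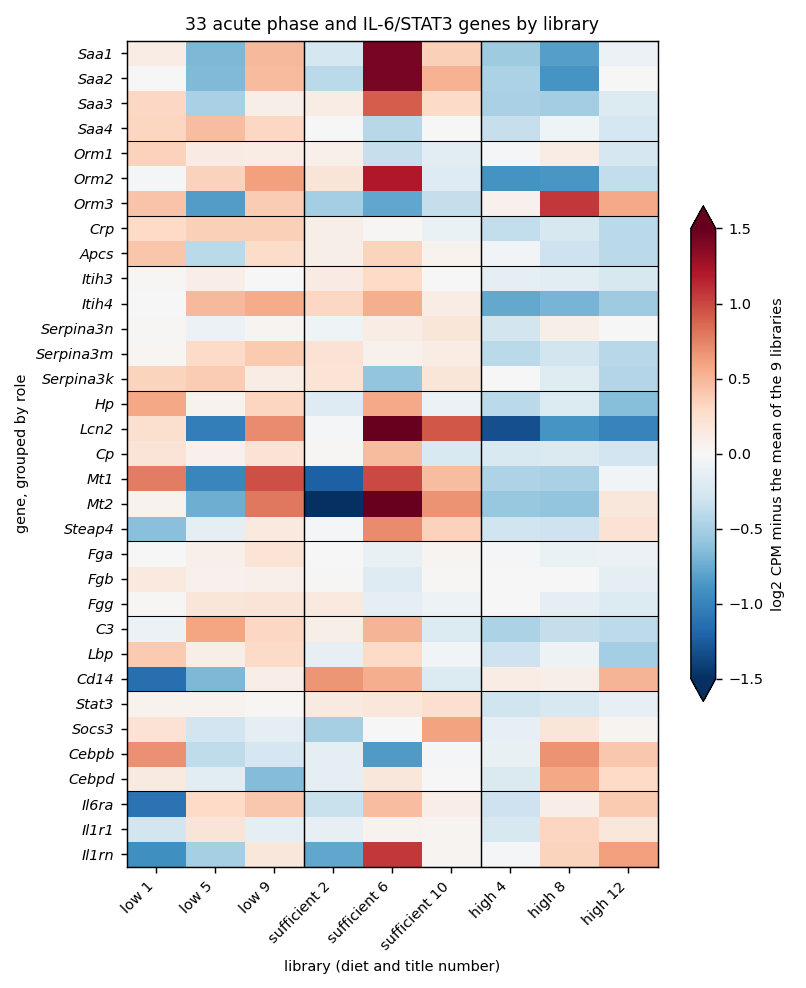
Log2 CPM of each of the 33 genes in each of the 9 libraries, minus that gene's mean over the 9 libraries, with genes grouped by role and the scale capped at 1.5 in either direction. Red cells gather in sufficient-iron replicate 6 for Saa1, Saa2, Orm2, Lcn2 and Mt2, and blue cells in the 3 high-iron libraries for Itih4, Crp, Serpina3m and Lcn2.

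Promoters are shown for the 2 members that passed the test and for 4 that were lower in high iron at unadjusted p under 0.05 in at least 1 comparison, because they carry or lack the letters read by the factors of this pathway. The bases before the RefSeq start (GRCm38.p6) are printed 5' to 3' in the direction of the gene, from base -250 to base -1, or to base -101 for Saa1 and Saa2. Capitals mark matches to 3 motifs searched on both strands: the STAT palindrome TTCNNNGAA, the C/EBP motif TTGCNNAA and the IL-6 response core CTGGGAA.
Itih4, chr14:30886226-30886475 (plus strand): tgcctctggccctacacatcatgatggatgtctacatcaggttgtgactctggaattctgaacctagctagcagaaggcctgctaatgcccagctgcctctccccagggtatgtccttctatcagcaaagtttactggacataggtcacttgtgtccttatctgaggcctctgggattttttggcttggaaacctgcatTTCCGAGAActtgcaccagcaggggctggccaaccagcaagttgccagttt
Crp, chr1:172697806-172698055 (plus strand): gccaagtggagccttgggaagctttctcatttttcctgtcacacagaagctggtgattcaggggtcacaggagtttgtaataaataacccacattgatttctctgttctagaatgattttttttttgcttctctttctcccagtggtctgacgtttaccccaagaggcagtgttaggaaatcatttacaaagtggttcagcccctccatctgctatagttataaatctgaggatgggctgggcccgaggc
Saa1, chr7:46743081-46743230 (minus strand): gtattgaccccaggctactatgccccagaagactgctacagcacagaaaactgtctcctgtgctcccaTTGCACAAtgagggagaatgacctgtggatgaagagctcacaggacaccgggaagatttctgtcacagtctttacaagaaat
Saa2, chr7:46751583-46751732 (plus strand): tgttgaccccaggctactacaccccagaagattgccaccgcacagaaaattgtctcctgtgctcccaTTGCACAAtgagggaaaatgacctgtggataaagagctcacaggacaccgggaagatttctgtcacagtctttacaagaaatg
Orm2, chr4:63362199-63362448 (plus strand): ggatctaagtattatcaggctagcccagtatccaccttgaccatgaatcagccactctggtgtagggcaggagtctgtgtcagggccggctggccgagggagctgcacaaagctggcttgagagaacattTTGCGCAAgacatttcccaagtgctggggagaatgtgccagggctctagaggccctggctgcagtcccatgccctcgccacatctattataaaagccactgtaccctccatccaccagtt
C3, chr17:57228137-57228386 (minus strand): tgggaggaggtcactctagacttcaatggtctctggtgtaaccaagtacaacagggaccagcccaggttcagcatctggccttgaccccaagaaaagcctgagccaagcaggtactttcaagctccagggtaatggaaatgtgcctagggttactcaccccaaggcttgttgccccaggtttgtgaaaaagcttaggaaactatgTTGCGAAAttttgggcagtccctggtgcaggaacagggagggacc
Itih4 held the STAT palindrome at bases -51 to -43. Saa1, Saa2, Orm2 and C3 each held the C/EBP motif, at bases -182 to -175, -183 to -176, -120 to -113 and -45 to -38. Crp held none of the 3 in these letters. RefSeq windows were found for 26 of the 33 members, with 30 windows in all. The C/EBP motif was in 14 of the 30 windows (46.7%), from 14 of the 26 genes (53.8%), against 9.56% of 32851 promoter windows of the same length. The STAT palindrome was in 6 (23.1%), against 7.02%, and the IL-6 response core in 5 (19.2%), against 9.1%. No match of one motif overlapped a match of another (0 pairs among 29 matches). A match of letters describes the sequence and does not show that a factor binds there.

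Pentraxins are pattern-recognition proteins of plasma, and Crp (chromosome 1, 172698055 to 172833031, GRCm38) is the member for which the human response is best known. Crp stood at 373, 391 and 388 CPM on low iron, 323, 308 and 284 on sufficient iron and 235, 258 and 230 on high iron. The 3 diets did not overlap, with low iron highest and high iron lowest. Crp fell by 0.67 ± 0.11 (SE) on the log2 scale from low to high iron (adjusted p = 0.029). Its log2 fold change was -0.34 ± 0.11 in high against sufficient iron (adjusted p = 0.345) and 0.33 ± 0.11 in low against sufficient iron (adjusted p = 0.446). The call in high against low iron was lost when high-iron replicate 4, 8 or 12 or low-iron replicate 5 or 9 was left out, with adjusted p from 0.0855 to 0.144. Apcs, the serum amyloid P component that binds amyloid fibrils, stood at 74.4, 42.2 and 67.5, then 59.2, 70.2 and 57.8, then 54, 44.7 and 42 CPM. All 3 high-iron libraries lay below the sufficient-iron ones, and low-iron replicate 5 lay among the high-iron values.

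Itih4 (chromosome 14, 30886476 to 30902353) encodes a heavy chain of the inter-alpha-trypsin inhibitor family that is cleaved by kallikrein and circulates without the light chain. It stood at 604, 848 and 888 CPM on low iron, 755, 886 and 654 on sufficient iron and 355, 373 and 418 on high iron. The high-iron libraries were the 3 lowest of the 9, and those of low and sufficient iron overlapped. Itih4 fell by 1.03 ± 0.17 on the log2 scale from low to high iron (adjusted p = 0.0328), from a mean of 780 ± 154 (SD, n = 3) to 382 ± 32.6 CPM. Against sufficient iron (765 ± 116 CPM) the log2 fold change was -1.002 ± 0.170 with an adjusted p of 0.0535. Leaving out high-iron replicate 4, 8 or 12 or low-iron replicate 5 or 9 ended the call in high against low iron, with adjusted p from 0.107 to 0.161. In high against sufficient iron the gene passed in 6 of 19 alternatives, among them the fit without low-iron replicate 1 (adjusted p = 0.0167). Itih3, a heavy chain that joins hyaluronan in the matrix and lies beside Itih4 on the chromosome, ranged from 225 to 242 CPM on high iron, 264 to 328 on sufficient iron and 264 to 285 on low iron. High iron overlapped neither diet, and the log2 fold changes were -0.32 ± 0.11 against sufficient iron (adjusted p = 0.43) and -0.21 ± 0.11 against low iron (adjusted p = 0.597).

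The Serpina3 genes are the mouse counterparts of human alpha-1-antichymotrypsin, a family of serine protease inhibitors expanded in tandem on chromosome 12. Reads that align equally well to several such close copies were left out of the counts. The annotated span of Serpina3m also begins at the same base as that of Serpina3k. The counts of these genes are therefore uncertain. Serpina3m stood at 139, 165 and 178 CPM on low iron, 158, 142 and 146 on sufficient iron and 103, 112 and 101 on high iron. All 3 high-iron libraries lay below the other 6. The log2 fold change was -0.61 ± 0.12 against low iron (adjusted p = 0.0544), past the threshold without low-iron replicate 1 (adjusted p = 0.0216), and -0.50 ± 0.12 against sufficient iron (adjusted p = 0.173). Serpina3k, the highest member per length, stood at 5335, 5484 and 4562, then 4844, 2806 and 4779, then 4208, 3711 and 3117 CPM. High iron lay below low iron throughout, and sufficient-iron replicate 6 was the lowest library of all. Serpina3n, the copy most often used as a marker of inflammation, ranged from 170 to 233 CPM with overlap among all diets and a log2 fold change of -0.13 ± 0.12 in high against sufficient iron.

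**Figure D2:**
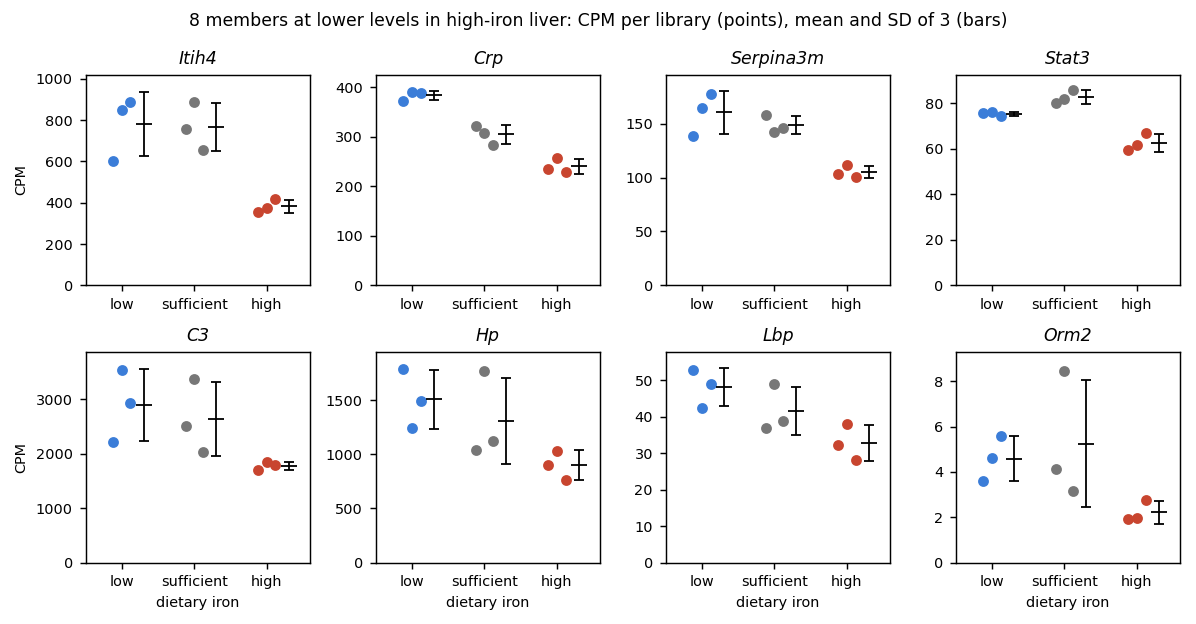
CPM per library (points) with the mean and SD of 3 mice (bars) for the 8 members that were lower in high iron than in both other diets at unadjusted p under 0.05. High-iron values of Itih4 lie between 355 and 418 CPM and those of Crp between 230 and 258 CPM, below every other library of the same gene.

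Serum amyloid A proteins are apolipoproteins of high-density lipoprotein, and Saa1 and Saa2 are the classical strongly induced pair while Saa4 is made without a stimulus. The 250-base windows of Saa1 and Saa2 were 94.8% identical (238 of 251 aligned positions), and the transcripts are close copies. Reads that align equally well to both were left out of the counts, so both levels may be too low. Saa1 stood at 17.3, 9.99 and 22.4 CPM on low iron, 13.3, 43 and 20.5 on sufficient iron and 11, 8.97 and 15.1 on high iron. Saa2 stood at 11.9, 7.5 and 16.6, then 8.96, 32.2 and 17.1, then 8.56, 6.42 and 12 CPM. Both were highest in sufficient-iron replicate 6 and lowest in high-iron replicate 8, and the diets overlapped. The log2 fold change in high against sufficient iron was -1.15 ± 0.42 for Saa1 (adjusted p = 0.458). For Saa2 it was -1.13 ± 0.44 (adjusted p = 0.488). Without sufficient-iron replicate 6 these values were -0.55 and -0.56. Saa3, made in mice by macrophages and fat as well as liver, stayed between 1.1 and 3.11 CPM, with 26 to 135 reads per library. Saa4 had another order of diets: 167, 185 and 166 CPM on low iron, 134, 101 and 133 on sufficient iron and 106, 128 and 112 on high iron. Low iron was above both other diets without overlap, with log2 fold changes of 0.50 ± 0.14 against sufficient iron (adjusted p = 0.446) and -0.59 ± 0.14 for high against low iron (adjusted p = 0.103).

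Orosomucoids, or alpha-1-acid glycoproteins, bind drugs and lipids in plasma and are encoded by 3 near-identical neighbours on chromosome 4, so their counts are uncertain. Orm2 stood at 3.59, 4.61 and 5.57 CPM on low iron, 4.15, 8.45 and 3.17 on sufficient iron and 1.91, 1.95 and 2.78 on high iron. The 3 high-iron libraries were the lowest of the 9. Fitted log2 fold changes were -1.28 ± 0.35 against sufficient iron (adjusted p = 0.245) and -1.09 ± 0.36 against low iron (adjusted p = 0.292). Without sufficient-iron replicate 6 the first was -0.74. Orm1, the abundant form, ranged from 239 to 386 CPM, with low iron (326 to 386) above sufficient iron (239 to 320) and high iron (254 to 328) overlapping both. Orm3 was the 1 member that lay higher in high iron at unadjusted p under 0.05, at 0.468, 1.01 and 0.694 CPM against 0.292, 0.23 and 0.331 on sufficient iron. That value rests on 6 to 32 reads per library, and its log2 fold change was 1.35 ± 0.45 (adjusted p = 0.4).

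Among proteins that handle iron, haemoglobin and other metals, haptoglobin (Hp), which captures free haemoglobin, stood at 1787, 1239 and 1496 CPM on low iron, 1040, 1766 and 1122 on sufficient iron and 904, 1035 and 765 on high iron. High iron lay below both diets, by a margin of 1040 against 1035 CPM at its nearest. The log2 fold change was -0.74 ± 0.22 against low iron (adjusted p = 0.208) and -0.54 ± 0.22 against sufficient iron (adjusted p = 0.514), or -0.26 without sufficient-iron replicate 6. Lcn2, lipocalin 2, withholds iron from bacteria by binding their siderophores. It stood at 2.5, 0.988 and 3.49 CPM on low iron, 2.08, 11.1 and 4.08 on sufficient iron and 0.803, 1.1 and 1.01 on high iron. Its highest library, sufficient-iron replicate 6, was 13.9 times its lowest, high-iron replicate 4. The log2 fold change in high against sufficient iron was -2.58 ± 0.62 (adjusted p = 0.173), the lowest of any member, and -1.68 without sufficient-iron replicate 6.

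Ceruloplasmin (Cp), the copper ferroxidase that loads iron onto transferrin, ranged from 624 to 655 CPM on high iron, 648 to 1059 on sufficient iron and 797 to 881 on low iron. High iron lay below low iron without overlap (log2 fold change -0.40 ± 0.17, adjusted p = 0.45) and overlapped sufficient iron. Steap4, a metalloreductase of ferric iron and copper, stood at 52.1, 72.6 and 89, then 79.4, 132 and 102, then 65.7, 64.7 and 93.3 CPM. Its log2 fold change was -0.55 ± 0.23 in low against sufficient iron (adjusted p = 0.446), with overlap. The metallothioneins Mt1 and Mt2 bind zinc and copper and are induced by metals, glucocorticoids and IL-6. Mt1 stood at 12.8, 3.77 and 14.7, then 3.17, 14.9 and 10.4, then 5.42, 5.32 and 7.26 CPM. Mt2 stood at 2.26, 1.28 and 3.81, then 0.729, 7.25 and 3.5, then 1.44, 1.42 and 2.46 CPM. Both genes were lowest in sufficient-iron replicate 2 and highest in sufficient-iron replicate 6, and no diet separated from another.

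**Figure D3:**
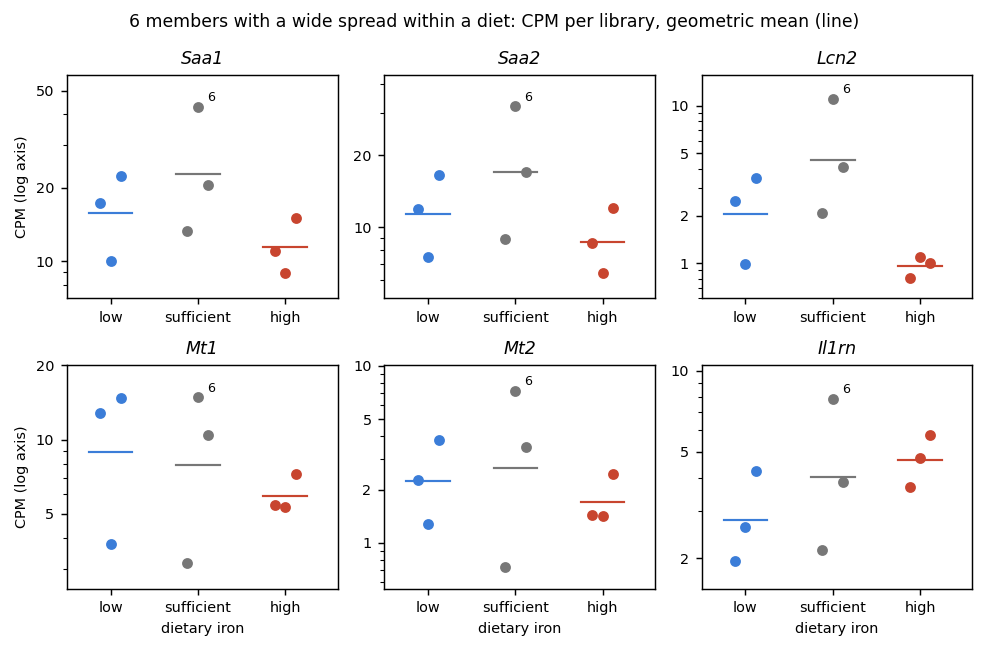
CPM per library on a log axis for 6 members with a wide spread within a diet, with the geometric mean of each diet as a line and sufficient-iron replicate 6 marked. That library is the highest for all 6 genes, at 11.1 CPM for Lcn2 and 43 CPM for Saa1.

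The fibrinogen chains Fga, Fgb and Fgg, which form the clotting protein and are textbook STAT3 targets, varied little. Across the 9 libraries Fga ranged from 1846 to 2309 CPM, Fgb from 1750 to 2202 and Fgg from 1481 to 1952. All 3 chains were lower in every high-iron library than in every low-iron library, with log2 fold changes of -0.17, -0.14 and -0.24 and adjusted p from 0.597 to 0.757. In high against sufficient iron the log2 fold changes lay between -0.09 and 0.00.

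C3, the central component of complement, stood at 2218, 3543 and 2930 CPM on low iron, 2504, 3364 and 2037 on sufficient iron and 1699, 1843 and 1796 on high iron. All 3 high-iron libraries lay below the other 6 and were close together. C3 had log2 fold changes of -0.70 ± 0.21 against low iron (adjusted p = 0.207) and of -0.57 ± 0.21 against sufficient iron (adjusted p = 0.456), or -0.35 without sufficient-iron replicate 6. Lbp, which passes bacterial lipopolysaccharide to Cd14, ranged from 28.1 to 38.1 CPM on high iron, 36.8 to 49.1 on sufficient iron and 42.5 to 52.7 on low iron. Its log2 fold change was -0.55 ± 0.15 against low iron (adjusted p = 0.177). Cd14, the co-receptor for that lipopolysaccharide on macrophages and hepatocytes, stood at 0.624, 0.878 and 1.55 CPM on low iron, 2.33, 2.14 and 1.24 on sufficient iron and 1.57, 1.54 and 2.08 on high iron. It was lowest on low iron, with a log2 fold change of -0.84 ± 0.35 against sufficient iron (adjusted p = 0.446) and 8 to 93 reads per library. The 16 Kupffer cell and macrophage markers summed to 306, 520 and 616 CPM on low iron, 822, 718 and 605 on sufficient iron and 521, 483 and 597 on high iron. Their high-iron sums lay below every sufficient-iron sum, whereas Cd14 overlapped between high and sufficient iron. Of the 16 markers, 10 were lower on low than on sufficient iron at unadjusted p under 0.05 (62.5%, against 5.41% of all genes). The part of these markers in the Cd14 value was not tested.

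Stat3, the transcription factor of IL-6 signalling, stood at 75.4, 75.9 and 74.1 CPM on low iron, 79.9, 81.9 and 85.9 on sufficient iron and 59.4, 61.5 and 67 on high iron. The 3 diets did not overlap, and here sufficient iron was the highest. Stat3 differed on the log2 scale by -0.40 ± 0.09 in high against sufficient iron (adjusted p = 0.17) and by -0.26 ± 0.10 in high against low iron (adjusted p = 0.352). Socs3, the feedback inhibitor that STAT3 induces, stood at 3.74, 2.63 and 2.92, then 2.26, 3.24 and 4.91, then 2.94, 3.65 and 3.31 CPM. Its diets overlapped, with a log2 fold change of -0.08 ± 0.27 in high against sufficient iron. Cebpb, the C/EBP factor once named for IL-6 (NF-IL6), ranged from 16.1 to 28.6 CPM on sufficient iron, 27 to 46.5 on high iron and 22.4 to 47 on low iron. Its log2 fold change in high against sufficient iron was 0.66 ± 0.31 (adjusted p = 0.546). Cebpd, its acutely induced relative, stayed between 1.52 and 3.65 CPM with overlap among the diets.

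The receptors showed no separation of diets. Il6ra, the binding chain for IL-6, stood at 5.62, 14.9 and 16.1, then 9.62, 16.7 and 13, then 9.8, 13 and 16 CPM, and low-iron replicate 1 was the lowest library. Il1r1, the signalling receptor for IL-1, ranged from 15 to 22.6 CPM. Il1rn, the IL-1 receptor antagonist that hepatocytes secrete in the acute phase, ranged from 1.95 to 7.85 CPM with the highest value in sufficient-iron replicate 6. Their log2 fold changes in high against sufficient iron were -0.03 ± 0.34, 0.11 ± 0.16 and 0.01 ± 0.42.

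**Figure D4:**
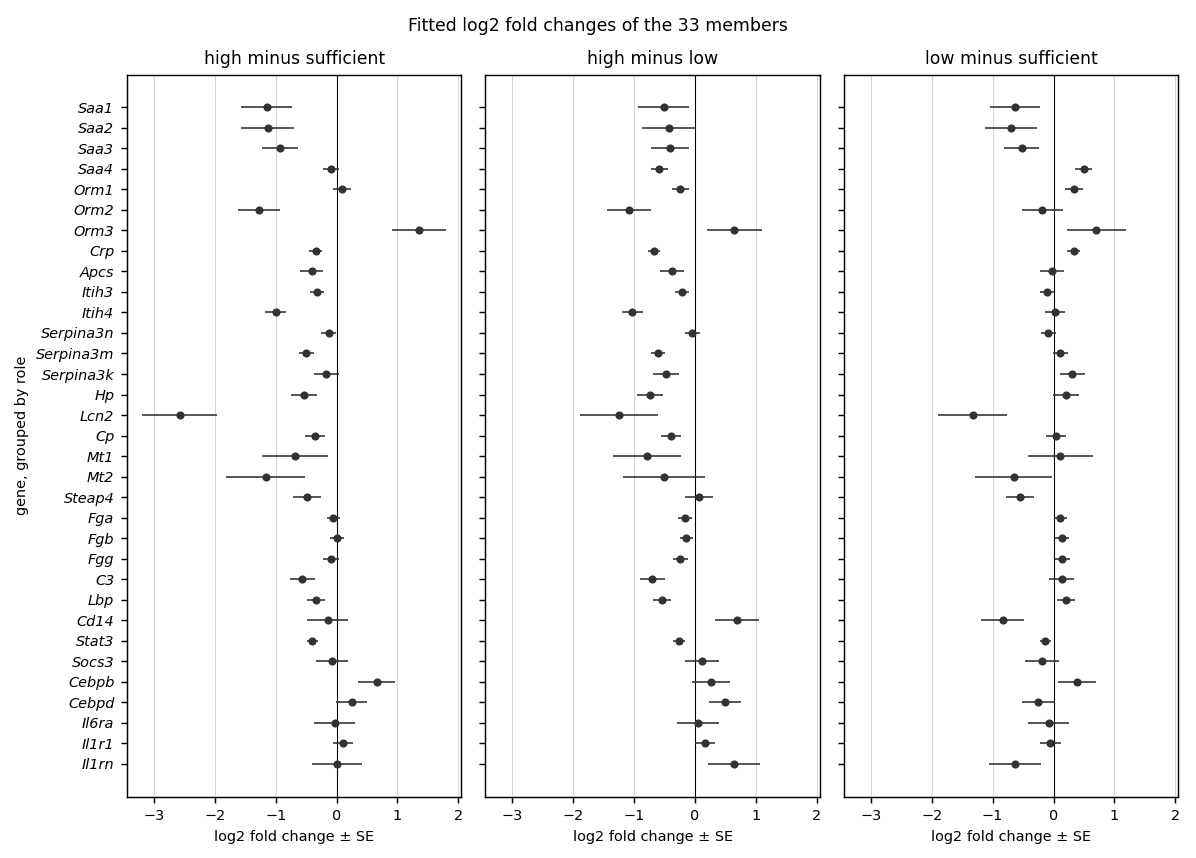
Fitted log2 fold changes with SE for the 33 members in the 3 comparisons, grouped by role. In high minus sufficient iron 26 of 33 are negative, from -2.58 for Lcn2 to 1.35 for Orm3, against 51.9% of all genes. In high minus low iron 24 of 33 are negative, against 51.2%.

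Within a diet the spread differed widely among the members. The median SD of log2 CPM within a diet was 0.30 over the members and 0.22 over all tested genes, and 12 of the 33 members lay below the median of all genes. Mt2, Mt1 and Lcn2 stood at the 99.4th, 98.7th and 98.4th percentiles of all genes, while Stat3 and Crp stood at the 1.01st and 2.78th. Sufficient-iron replicate 6 was the highest library for 12 members and the lowest for 6, and over all genes it was highest for 19.6% and lowest for 21.2%. Against the mean of the other sufficient-iron libraries it held 3.61 times as much Lcn2, 3.42 times Mt2, 2.62 times Il1rn, 2.54 times Saa1, 2.47 times Saa2 and 2.31 times Orm2. It held 0.583 times as much Serpina3k, 0.586 times Cebpb and 0.753 times Saa4. In the same library the 7 monocyte markers summed to 19.5 CPM, against 10.1 and 13.3 in the other sufficient-iron libraries, and the 11 stellate cell and fibroblast markers to 531 CPM, against 237 and 299. The 7 adipocyte markers summed to 82.9 CPM there, against 13.7 and 21.5. Most of that sum was the lipid droplet genes Cidec at 56.6 CPM, against 4.96 and 12.5, and Plin4 at 15.5, against 2.55 and 2.95. Fabp4 stood at 9.78 CPM, against 5.65 and 5.05, and Cfd at 0.99, against 0.51 and 0.938. Adipoq was at 0 in replicate 6, and Plin1 and Lep were at 0 in all libraries. Cholangiocyte markers summed to 74.7 CPM, against 42.2 and 58.3. Neutrophil markers, at 7.32 CPM, were close to the 6.01 and 7.09 CPM of the other 2. Whether these sums reflect cell content, and their part in the values of replicate 6, was not tested.

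Per kilobase of annotated exon (GENCODE vM21), the mean levels over all libraries spanned from 2098 CPM per kb for Serpina3k to 0.642 for Orm3. Behind Serpina3k came Hp at 921, Fgg at 817, Fga at 665, Fgb at 524, C3 at 475 and Orm1 at 395 CPM per kb. Crp and Itih4 had near-equal levels of 183 and 182 CPM per kb. Saa1 and Saa2 stood at 29.5 and 20.7, below the constitutive Saa4 at 65.3, and Lcn2 at 3.3 CPM per kb. Non-unique alignments were left out, so genes with close copies may rank too low. Among these are Saa1, Saa2, the orosomucoids and the Serpina3 genes, and the order of Saa1, Saa2 and Saa4 is uncertain. The 33 members together took 18649, 19901 and 19073 CPM on low iron, 17604, 16881 and 16685 on sufficient iron and 14936, 14636 and 13389 on high iron. These sums did not overlap between diets. They mostly reflect the most abundant members, Serpina3k, C3, Fga, Fgb, Fgg and Hp, with means of 1239 to 4316 CPM. In low against sufficient iron the median log2 fold change of the members was -0.03, with 16 positive and 17 negative. The 10 hepatocyte markers summed to 74456, 70293 and 79351 CPM on low iron, 58396, 75369 and 54960 on sufficient iron and 58608, 62734 and 53444 on high iron. All 9 that were tested had negative log2 fold changes in high against low iron, against 51.2% of all genes. In high against sufficient iron 5 of these markers were positive and 4 negative, with a median of 0.05, while 51.9% of all genes were negative. Their part in the members' sums was not tested.

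**Figure D5:**
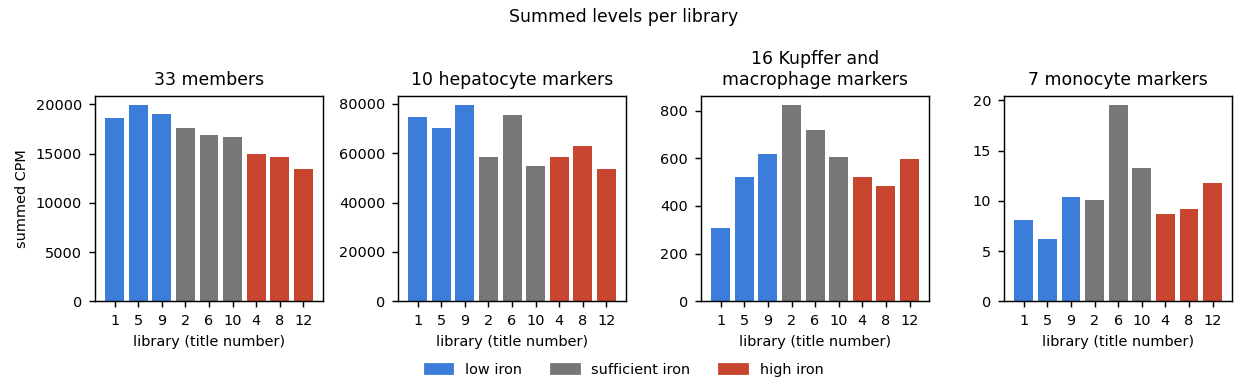
Summed CPM per library of the 33 members and of the hepatocyte, Kupffer cell and macrophage, and monocyte marker lists, coloured by diet. The members' sum, which mostly reflects a few abundant genes such as Serpina3k and C3, falls into 3 separate ranges. These are 18649 to 19901, 16685 to 17604 and 13389 to 14936 CPM for low, sufficient and high iron.

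Among 127 tested genes of 7 further pathway lists, 3 passed the adjusted threshold with edgeR, all in high against low iron, where 0.507% of all genes passed. Ambp, the precursor of alpha-1-microglobulin and of the light chain bikunin that joins the ITIH heavy chains, stood at 1257, 1149 and 1225 CPM on low iron, 992, 1057 and 808 on sufficient iron and 709, 811 and 657 on high iron. Ambp fell by 0.74 ± 0.14 on the log2 scale from low to high iron (adjusted p = 0.049), and it passed in 9 of 19 alternatives, with adjusted p up to 0.219. Of the 25 other positive acute phase proteins tested, 15 were lower (60.0%, against 5.44% of all genes) and 1 was higher (4.0%, against 4.22%) in high against low iron at unadjusted p under 0.05, with a median log2 fold change of -0.43. In high against sufficient iron the counts were 8 lower (32.0%, against 5.12%) and 1 higher (4.0%, against 4.16%), with a median of -0.22. Fgl1, a fibrinogen-like hepatokine induced by IL-6, stood at 40.3, 47.5 and 47.5 CPM on high iron and 86.4, 118 and 66.8 on sufficient iron (log2 fold change -1.004 ± 0.189, adjusted p = 0.076). Vnn1, a pantetheinase, stood at 147, 148 and 133 CPM on high iron and 76.9, 80.9 and 84.8 on sufficient iron (log2 fold change 0.82 ± 0.14, adjusted p = 0.054).

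Negative acute phase proteins, which hepatocytes make less of during inflammation, also lay lower in high than in low iron. Of 16 tested, 9 were lower (56.2%, against 5.44% of all genes) in that comparison at unadjusted p under 0.05 and 0 were higher. All 16 log2 fold changes were negative, against 51.2% of all genes, with a median of -0.42. Alb, Ttr and Apoa1 among them are also in the list of hepatocyte markers. In high against sufficient iron 3 were lower (18.8%, against 5.12%) and 0 higher, with 10 of 16 negative (51.9% of all genes) and a median of -0.11. In low against sufficient iron 7 were higher (43.8%, against 5.79%) and 0 lower. The median was 0.35 and 15 of 16 were positive, while 50.6% of all genes were negative. Igfals, the acid-labile subunit that carries IGF1 in plasma, stood at 61.6, 54.3 and 66.8 CPM on low iron, 50.7, 35.1 and 40 on sufficient iron and 30.4, 27 and 24.3 on high iron. Igfals fell by 1.16 ± 0.15 on the log2 scale from low to high iron (adjusted p = 0.0142), a call lost without high-iron replicate 4, 8 or 12 or low-iron replicate 9 (adjusted p from 0.0596 to 0.0855). For Igf1 itself the difference was -0.61 ± 0.13 on the log2 scale (adjusted p = 0.072). Apoa4, an apolipoprotein of triglyceride-rich particles, stood at 371, 2281 and 602 CPM on sufficient iron and 84.2, 80 and 84.8 on high iron (log2 fold change -3.71 ± 0.69, adjusted p = 0.0851).

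Receptors, JAK-STAT kinases and feedback genes gave counts near the background, which was 4.16% higher and 5.12% lower of all genes in high against sufficient iron. In the 24 tested receptors, JAK-STAT kinases and feedback genes, 1 was higher (4.17%) and 2 were lower (8.33%) in that comparison at unadjusted p under 0.05. The leptin receptor gene Lepr stood at 6.12, 9.88 and 14 CPM on high iron and 5.28, 4.28 and 4.97 on sufficient iron (log2 fold change 1.04 ± 0.29, adjusted p = 0.25). Il22ra1, the IL-22 receptor chain, differed by -0.67 ± 0.21 on the log2 scale (adjusted p = 0.368). In the 14 tested STAT3-induced genes outside the members the counts were 2 higher (14.3%) and 3 lower (21.4%), both shares above that background. Hamp, hepcidin, was 1 of the 2 higher genes (log2 fold change 1.85 ± 0.76, adjusted p = 0.517). It was the only 1 of the 14 to pass, in high against low iron (log2 fold change 6.40 ± 0.95, adjusted p = 0.029). Its levels were 625, 957 and 563 CPM on high iron and 21.8, 0.805 and 4.62 CPM on low iron. Whether STAT3 had a part in the Hamp values was not tested. The call for Hamp was lost when high-iron replicate 4, 8 or 12 or low-iron replicate 9 was left out (adjusted p from 0.0673 to 0.106) and without the filter on low counts (adjusted p = 0.108). Ccnd1, cyclin D1, differed by 1.16 ± 0.29 on that scale in the same comparison (adjusted p = 0.126).

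In the 28 tested IL-1, TLR4 and NF-kB genes, 1 was higher (3.57%) and 2 were lower (7.14%) in high against sufficient iron at unadjusted p under 0.05, against 4.16% and 5.12% of all genes. Relb, an NF-kB subunit, differed by -1.09 ± 0.29 on the log2 scale (adjusted p = 0.236), Nfkbia, the NF-kB inhibitor, by 0.35 ± 0.14 (adjusted p = 0.517) and Nfkb1 by -0.23 ± 0.11 (adjusted p = 0.553). The 12 C/EBP and hepatocyte factors gave 1 higher (8.33%) and 1 lower (8.33%), with Foxa2 at 0.36 ± 0.13, Cebpg at -0.31 ± 0.13 and the bile acid receptor gene Nr1h4 at 0.10 ± 0.14 on the log2 scale. The 12 zinc and glucocorticoid response genes gave 0 at unadjusted p under 0.05 in the same edgeR comparison, with Sgk1 at -0.14 ± 0.25, Zbtb16 at 0.62 ± 0.33 and the zinc importer gene Slc39a10 at -0.22 ± 0.18. Transcripts of the cytokines themselves were scarce. Il6 ranged from 0 to 0.0366 CPM, Tnf reached 0.506, Lif 0.368 and Osm 0.0921 CPM, and none of these 4 had enough reads to be tested. Il1b ranged from 0.8 to 2.53 CPM and Il1a from 2.11 to 4.08 CPM. The signalling chains were abundant, with Il6st, which encodes gp130, at 78.5 to 146 CPM and Jak1 at 65.8 to 112 CPM.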

How the data were processed

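Liver RNA of 9 mice was sequenced on an Illumina HiSeq after TruSeq library preparation, per the labels' protocols. Each deposited table holds 1 library as whole-number read counts by gene symbol. FastQC, mm10 and mm9 are named without roles in the submitters' processing notes. Which aligner, counter and strand option the authors used is not given in the sources used here, so antisense and overlapping genes cannot be told apart. Reads outside genes were 13.4% to 25.9% and ambiguous reads 0.477% to 0.917% of assigned plus unassigned unique reads, and both stayed out of library sizes and tests.

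The analysis used edgeR 4.0.16 in R 4.3.3: filterByExpr left 13020 genes, including all 33 members, library sizes were scaled by TMM, and a robust quasi-likelihood model with diet as the only term was fitted to all 9 libraries. Adjusted p-values are those of Benjamini and Hochberg over the 13020 genes, the threshold was 0.05, and SE is that of the log2 fold change. A prior count of 2 entered log2 CPM. DESeq2 1.42.0 and limma 3.58.1 served as alternatives, together with other scalings, filters and the omission of libraries. The 3 libraries of a diet come from separate mice, and no 2 were duplicates (chi-square per degree of freedom 41.73 to 518.6). In simulated data of the same design and 12890 to 12945 genes, 200 genes above a minimum level were changed. All libraries were drawn from the same mean profile with a spread per gene, so a library that differs in many genes was not simulated. There, 70% to 72% of 2-fold and 96% to 98% of 4-fold changes were called, with 8 to 14 false calls. These shares may not hold for the real libraries.

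All members are named, and from each pathway list the 3 genes with the lowest p over the 3 diets and any past the threshold. 1 gene that this rule names is not reported here. The members and lists were chosen with earlier results of these data known. Adgre1 and Chil3 were matched through older symbols, and Ly6g was not analysed here. Gene positions and exon lengths come from GENCODE vM21 (GRCm38) and promoter sequences from RefSeq (GRCm38.p6).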

Additional observations from a re-analysis of the deposited data

How the results depend on the processing

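No paired analysis was run, because the 3 diets share no replicate numbers and the labels name no batch. Whether the mice were handled in sets is not known. Counts of all genes past the threshold depended strongly on the test and the libraries. In high against sufficient iron the count of 28 was 45 without the filter on low counts, 215 with DESeq2, 88 with quality weights in limma-voom, 63 without low-iron replicate 1 and sufficient-iron replicate 6, 0 at an adjusted p under 0.01, 66 at 0.1, and 0 to 56 when 1 library was left out. In high against low iron the count of 66 was 365, 366 and 288 under DESeq2, quality weights and the omission of those 2 libraries, 0 at 0.01, 168 at 0.1, and 0 to 112 on leaving out 1 library. Low against sufficient iron gave 0, and 105 with DESeq2, 1 without the 2 libraries and 0 to 1 on leaving out 1. The 3-diet count of 28 was 52 without the filter, 413, 228 and 192 under the 3 settings named, 0 at 0.01, 96 at 0.1, and 0 to 68 on leaving out 1 library. Members at unadjusted p under 0.05 numbered 9 to 17 in high against sufficient iron and 2 to 9 in low against sufficient iron on leaving out 1 library, and 3 in the latter with quality weights or with the compared diets alone. The members' median log2 fold change was -0.21 without the 2 libraries and -0.40 to -0.21 on leaving out 1 in high against sufficient iron, and -0.43 to -0.23 in high against low iron. In low against sufficient iron it was -0.03 and turned to 0.13 with quality weights, 0.12 without the 2 libraries and 0.076 without sufficient-iron replicate 6, and lay between -0.104 and 0.076 on leaving out 1. The cause of these differences was not tested. Of the 33 members, 26, 21 and 29 kept 1 sign under every alternative that gave a value (19 for each, 18 for Orm3) in high against sufficient, low against sufficient and high against low iron. The alternatives for Ambp, Igfals and Hamp were chosen after seeing the data. Orm3, Cd14, Lcn2, Mt2, Il1rn and Saa3 had 6, 8, 19, 20, 25 and 26 reads in their lowest library.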
